A study of Mus musculus with 6 samples.

Results

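The counted genes of the C-type lectin (Clec), killer cell lectin-like receptor (Klr), Cd300, leukocyte immunoglobulin-like receptor (Lilr) and paired immunoglobulin-like type 2 receptor (Pilr) families were compared between 2 cultures of one transformed cell type. Members were taken by gene symbol, with earlier results of these data known, as every row whose name starts with Clec and a digit, with Klr, a letter from a to k and a digit, or with Cd300, Lilr or Pilr. This rule took 81 of 23337 counted genes, of which 31 were Clec, 35 Klr, 8 Cd300, 4 Lilr and 3 Pilr genes. The cells were mouse HSPCs, the stem and progenitor cells of blood, and all carried MLL-AF9, a leukemia fusion gene, and the only labelled difference was culture under pro-lymphoid or pro-myeloid conditions. Each culture had 3 libraries, named here by the numbers of their titles, lymphoid 1, 5 and 6 and myeloid 2, 3 and 4. The labels give no strain, age, cytokine or clone, and do not say whether the libraries of a culture were grown separately or derive from different animals. The p-values therefore measure the spread between these 6 libraries, part or all of which may be technical.

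These families are surface receptors of innate immune cells. Many activating members carry no signalling tail of their own and pair with adaptors. DAP12 (Tyrobp) and the Fc receptor gamma chain (Fcer1g) pass the signal to the kinase Syk, and DAP10 (Hcst) is a further adaptor. Inhibitory members recruit the phosphatases SHP-1 (Ptpn6) and SHIP-1 (Inpp5d). Several families are paired, with an activating and an inhibitory receptor of similar outer domains encoded side by side, and in myeloid cells many of them sense microbial glycans, dead cells, lipids or MHC class I.

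Libraries held 34972488 to 46724382 counts. A level is given as CPM, the counts of a gene relative to TMM-scaled library size (trimmed mean of M-values), and 3 counts in 1 library equalled 0.0650 to 0.0888 CPM. The cultures parted on the first principal component of all tested genes (80.6% of the variance). Myeloid 2 stood apart on the second (9.72%), at 40.4 against -25.3 and -13.5 for myeloid 3 and 4. All pairs of libraries differed by more than sampling noise, the closest having a chi-square of 37.8 per degree of freedom. Of 6 HSPC and leukemia markers all were tested, Kit and Cd34 being higher and Hoxa9, Meis1 and Ptprc lower in pro-lymphoid culture, and the call of Kit was lost without lymphoid 6 and that of Ptprc under 9 of 14 alternatives. In bulk RNA, fewer cells of a type and less RNA per cell cannot be told apart.

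Of the 81 members, 35 had enough counts to be tested, and 21 differed between the cultures at an edgeR adjusted p under 0.05, against 38.6% of all 12477 tested genes. In pro-lymphoid culture 9 were higher (17.4% of all tested genes were) and 12 lower (21.3%). The median log2 fold change, pro-lymphoid minus pro-myeloid throughout, was -0.08 over the 35 members and -0.00 over all tested genes. In 23 of the 35 the values of the cultures did not overlap, against 53.5% of all tested genes. For 10 of the 35 the filter level of 0.262 CPM was reached in all libraries of only 1 culture, and 9 of these were called, so the share of called members supports nothing by itself. Without myeloid 4 only 5 members were called higher, and without myeloid 2 the numbers were 9 higher and 13 lower.

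By family, all 3 Pilr genes and 2 of 3 tested Lilr genes were lower in pro-lymphoid culture. Of 17 tested Clec genes 6 were higher and 4 lower, and of 6 tested Cd300 genes 1 was higher and 2 were lower. Only 6 of 35 Klr genes could be tested, of which 2 were higher and 1 lower. Pilrb1, Pilrb2 and the lower Klr gene, Klrg2, reached the filter level of 0.262 CPM in all libraries of pro-myeloid culture only. The counts by family therefore show no direction of a family by themselves. By known role, 0 of 7 tested inhibitory receptors were higher and 3 lower, while of 14 tested activating receptors 4 were higher and 5 lower, beside the 17.4% higher and 21.3% lower of all tested genes. The count of 0 rests on Cd300a (edgeR adjusted p = 0.0547), which some alternatives called higher, and on Clec4a2, called higher without lymphoid 6 (edgeR adjusted p = 0.0330). Of 11 tested members given neither role 4 were higher and 2 lower, and of 3 tested ligands of NKR-P1 receptors 1 was higher and 2 lower. The roles were assigned after the values were seen, so the counts by role depend on which members were given one.

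**Figure D1:**
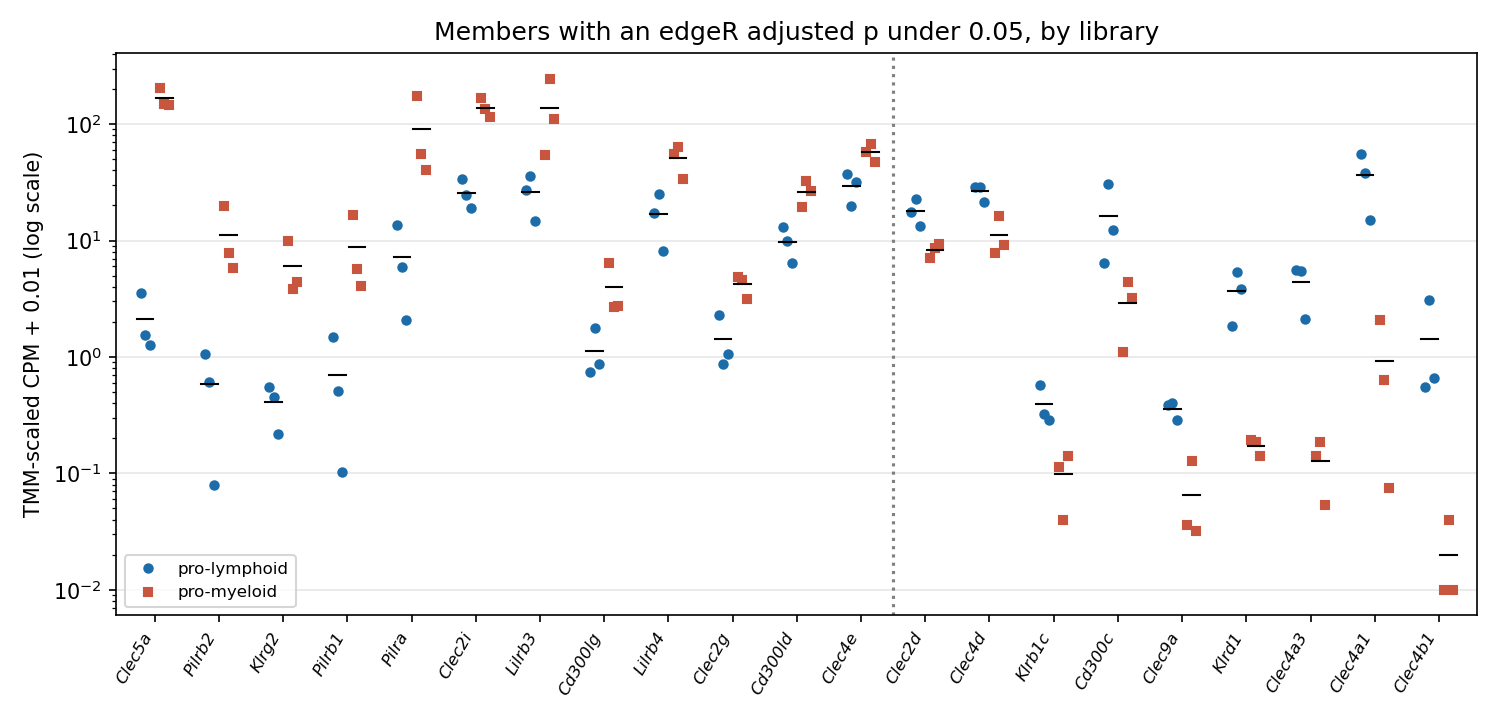
Level of the 21 members with an edgeR adjusted p under 0.05 (x axis) as TMM-scaled CPM plus 0.01 on a log scale (y axis). Circles are the 3 pro-lymphoid libraries, squares the 3 pro-myeloid ones, and bars the mean of a culture. The 12 members left of the dotted line were lower in pro-lymphoid culture, Clec5a the most, and the 9 on the right were higher, and within each gene the cultures do not overlap.

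The upstream sequences of 6 members are shown because these genes form the groups on which the results turn: Clec5a, which fell the most, the neighbours Clec4d and Clec4e, which moved in opposite directions, and the 3 Pilr genes, which fell together. Each is the 250 bases before the annotated start, 5′ to 3′ on the gene's strand, from RefSeq (GRCm38.p6, the assembly of mm10). Capitals mark matches on either strand to GAGGAA, the core motif of the myeloid factor PU.1, or to TTGCNNAA, a motif of the C/EBP factors. The first occurred in 23.25% and the second in 9.564% of 32851 mouse promoters of this length.
Clec5a, chr6:40585806-40586055, minus strand: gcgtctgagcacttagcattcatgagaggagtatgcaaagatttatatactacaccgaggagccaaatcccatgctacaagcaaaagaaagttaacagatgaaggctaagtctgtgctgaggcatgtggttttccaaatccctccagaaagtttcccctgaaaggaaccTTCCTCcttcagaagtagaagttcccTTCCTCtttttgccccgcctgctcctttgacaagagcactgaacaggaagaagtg
Clec4d, chr6:123261857-123262106, plus strand: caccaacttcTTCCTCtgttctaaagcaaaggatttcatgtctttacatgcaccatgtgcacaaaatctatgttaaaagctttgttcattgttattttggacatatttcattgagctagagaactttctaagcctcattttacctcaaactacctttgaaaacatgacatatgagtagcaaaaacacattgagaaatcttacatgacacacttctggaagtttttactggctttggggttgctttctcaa
Clec4e, chr6:123289872-123290121, minus strand: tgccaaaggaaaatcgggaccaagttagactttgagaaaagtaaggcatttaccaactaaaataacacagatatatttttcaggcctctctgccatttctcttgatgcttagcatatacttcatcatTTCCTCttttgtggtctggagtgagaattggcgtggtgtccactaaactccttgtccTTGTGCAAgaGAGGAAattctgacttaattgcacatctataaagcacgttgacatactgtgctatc
Pilra, chr5:137836279-137836528, minus strand: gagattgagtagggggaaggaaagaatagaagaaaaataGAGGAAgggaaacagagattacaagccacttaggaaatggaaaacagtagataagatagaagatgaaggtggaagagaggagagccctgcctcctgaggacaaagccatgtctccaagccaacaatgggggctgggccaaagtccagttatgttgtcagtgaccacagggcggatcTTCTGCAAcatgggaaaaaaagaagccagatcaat
Pilrb1, chr5:137858050-137858299, minus strand: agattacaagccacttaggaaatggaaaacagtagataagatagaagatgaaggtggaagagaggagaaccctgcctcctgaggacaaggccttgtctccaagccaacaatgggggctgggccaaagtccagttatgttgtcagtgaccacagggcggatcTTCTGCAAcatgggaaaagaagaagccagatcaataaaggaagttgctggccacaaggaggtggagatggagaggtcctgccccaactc
Pilrb2, chr5:137871759-137872008, minus strand: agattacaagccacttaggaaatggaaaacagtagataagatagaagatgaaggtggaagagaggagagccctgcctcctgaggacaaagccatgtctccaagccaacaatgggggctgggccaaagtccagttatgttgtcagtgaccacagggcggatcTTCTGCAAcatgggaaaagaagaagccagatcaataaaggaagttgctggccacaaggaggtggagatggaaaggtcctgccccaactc
The Pilr sequences are nearly the same. Pilrb1 and Pilrb2 matched at 98.4% of 250 positions, and Pilra matched them at 98.0% and 99.5% of the 196 positions shared after a shift of 54 bases, whereas Clec4d and Clec4e matched at 34.4% of 227 aligned positions. The Pilra and Pilrb windows hold the same C/EBP match, and the PU.1 match of Pilra lies in the upstream part that the other windows do not reach. Over all families, 60 members had 68 promoters in RefSeq, of which 40 (58.8%) held the PU.1 core and 20 (29.4%) the C/EBP motif. The PU.1 core was in 5 of 9 promoters of members higher in pro-lymphoid culture, 6 of 11 of members lower there, 9 of 13 of members without a call and 20 of 35 of untested members. The C/EBP motif was in 0, 4, 6 and 10 of the same promoters. A match describes letters and not a bound site, promoters of related genes are not independent, and base composition was not matched between members and other genes.

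Clec5a had the smallest adjusted p of all members. It encodes MDL-1, an activating receptor of monocytes, macrophages and neutrophils that signals through DAP12. It stood at 3.50, 1.54 and 1.26 CPM in lymphoid 1, 5 and 6 and at 205, 150 and 146 CPM in myeloid 2, 3 and 4. Every pro-myeloid library lay far above every pro-lymphoid one, and the spread within either culture was small beside the gap. The fitted level was 80.1-fold higher in pro-myeloid culture (log2 fold change -6.32 ± 0.39, SE; edgeR adjusted p = 4.29e-05; chr6:40574898-40585805, minus strand, mm10).

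The 3 Pilr genes lie next to each other on chromosome 5 (chr5:137821952-137871758, minus strand) and fell together. Pilra encodes an inhibitory receptor for sialylated glycoproteins, and Pilrb1 and Pilrb2 encode its activating DAP12-coupled counterparts. Pilra stood at 13.5, 5.94 and 2.05 CPM in lymphoid 1, 5 and 6 and at 176, 54.9 and 40.2 CPM in myeloid 2, 3 and 4. Pilrb1 stood at 1.46, 0.497 and 0.0931 against 16.6, 5.68 and 4.03 CPM, and Pilrb2 at 1.06, 0.601 and 0.0698 against 19.7, 7.84 and 5.74 CPM. In all 3 genes lymphoid 1 was the highest and lymphoid 6 the lowest of its culture, myeloid 2 was the highest of the other, and the cultures did not overlap. Pilrb1 and Pilrb2 reached the filter level of 0.262 CPM in all libraries of pro-myeloid culture only, so the shared direction supports nothing by itself. The log2 fold changes were -3.67 ± 0.80 for Pilra, -3.72 ± 0.83 for Pilrb1 and -4.31 ± 0.75 for Pilrb2 (SE; edgeR adjusted p = 0.0102, 0.0114 and 0.00417). Without myeloid 2 they were -2.74, -2.86 and -3.60, and without lymphoid 1 -4.51, -4.93 and -5.09, and no single library ended a call. At most 3.53% of the 100-base windows of a Pilr transcript occurred in another gene's transcripts, and 18.1% of the counted Pilra exon bases overlapped another gene.

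Per kb of exon, Pilra stood at 2.58, 2.80 and 6.09 times the sum of Pilrb1 and Pilrb2 in lymphoid 1, 5 and 6 and at 2.50, 2.14 and 2.18 times in myeloid 2, 3 and 4. The inhibitory gene was thus the more abundant in all 6 libraries, and lymphoid 6, with the highest ratio, had 3 or 4 counts of each activating gene.

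Further members with an inhibitory or activating role were lower in pro-lymphoid culture on other chromosomes. Lilrb3, listed by RefSeq as a synonym of Pirb, encodes the MHC class I receptor PIR-B and stood at 27.3, 36.1 and 14.8 CPM against 54.3, 246 and 111 CPM. Its pro-myeloid values varied widely, with myeloid 3 the highest and myeloid 2 the lowest, and all lay above the pro-lymphoid ones. The log2 fold change was -2.40 ± 0.57 (SE; edgeR adjusted p = 0.0143), it was -1.67 without myeloid 3, and the call was lost without lymphoid 6. Lilrb4, which encodes the inhibitory receptor gp49B of mast cells and myeloid cells, stood at 17.1, 25.2 and 8.07 CPM against 55.8, 63.8 and 33.9 CPM (-1.61 ± 0.41, edgeR adjusted p = 0.0198, lost without lymphoid 1 or myeloid 3). Both genes share sequence with annotated relatives, 20.7% of the 100-base windows for Lilrb3 and 34.7% for Lilrb4, so their counts may hold reads of those relatives. Lilra6, whose windows are shared to 11.9%, stood at 3.72, 8.58 and 3.12 against 2.03, 6.99 and 3.81 CPM with no call (edgeR adjusted p = 0.711).

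Klrg2 stood at 0.542, 0.445 and 0.209 CPM in lymphoid 1, 5 and 6 and at 9.87, 3.82 and 4.40 CPM in myeloid 2, 3 and 4. It was the only Klr gene that was lower in pro-lymphoid culture, with a log2 fold change of -3.94 ± 0.56 (SE; edgeR adjusted p = 0.00183; chr6:38626660-38637239), and the cultures lay well apart. The filter level of 0.262 CPM was reached in all libraries of pro-myeloid culture only.

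Neutrophil and granulocyte progenitor markers moved in the same direction as these genes. Of 13 tested neutrophil markers 12 were lower in pro-lymphoid culture (median log2 fold change -8.39), and their summed level was 216 to 410 CPM in pro-lymphoid and 5146 to 9683 CPM in pro-myeloid libraries, with Elane, Ms4a3 and Cd177 among the lower genes. Of 11 tested monocyte and macrophage markers 3 were lower, among them Itgam, Ly6c2 and Mertk, the call of Mertk being lost without lymphoid 6. The other calls of that list were 2 higher genes, Cd163 and Marco, and its sum was 1052 to 2371 against 2498 to 3704 CPM. Of 6 tested mast cell, basophil and eosinophil markers 4 were lower and 1 higher (summed 17.6 to 38.5 against 94.2 to 170 CPM), and Prss34, Fcer1a, Il5ra and Epx had 0 counts in all libraries. Of 4 tested megakaryocyte markers 1 was lower, at sums of 8.76 to 11 against 13.5 to 19.2 CPM. Over all tested genes 17.4% were higher and 21.3% lower. The part of these markers' cells in the change of Clec5a, the 3 Pilr genes, Lilrb3, Lilrb4 and Klrg2 was not tested.

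The Dectin-2 cluster on chromosome 6 held genes that were higher and a gene that was lower in pro-lymphoid culture. The cluster holds 9 Clec4 genes and, within 1 Mb of them, Klrg1. Of its 7 tested genes 4 were higher and 1 was lower, beside 17.4% higher and 21.3% lower of all tested genes. Of the 4, Clec4a1, Clec4a3 and Clec4b1 reached the filter level of 0.262 CPM in all libraries of pro-lymphoid culture only. The count therefore shows no direction of the cluster by itself. The cluster encodes receptors of dendritic cells and macrophages for fungal and mycobacterial sugars and glycolipids, together with the inhibitory receptor DCIR and its relatives.

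Clec4a1 and Clec4a3, relatives of the DCIR gene Clec4a2, stood far higher in pro-lymphoid culture. Clec4a1 stood at 55.6, 37.9 and 15.1 CPM in lymphoid 1, 5 and 6 and at 2.06, 0.622 and 0.0650 CPM in myeloid 2, 3 and 4. Every pro-lymphoid library lay above every pro-myeloid one, with a wide spread in each. The log2 fold change was 5.34 ± 0.83 (SE; edgeR adjusted p = 0.00252; chr6:122921848-122934619), and 6.16 with limma-voom, 6.87 without myeloid 2 and 4.72 without myeloid 4. Clec4a3 stood at 5.59, 5.46 and 2.12 CPM against 0.130, 0.178 and 0.0433 CPM (5.26 ± 0.65, edgeR adjusted p = 0.000697). Their neighbour Clec4a2, which encodes the inhibitory DCIR, stood at 10.7, 8.18 and 3.05 CPM against 2.73, 3.88 and 4.88 CPM. Its cultures overlapped, with no call (edgeR adjusted p = 0.157; 0.0330 without lymphoid 6). Per kb of exon, Clec4a1 was 8.71, 7.77 and 8.34 times the level of Clec4a2 in lymphoid 1, 5 and 6 and 1.26, 0.269 and 0.0224 times in myeloid 2, 3 and 4. The ratio was thus nearly constant within pro-lymphoid culture and varied widely in the other, where it rests on 79, 21 and 3 counts of Clec4a1 in myeloid 2, 3 and 4.

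Clec4b1, which encodes the activating receptor DCAR, had 166 counts in pro-lymphoid and 1 count in pro-myeloid culture. The ratio was 166, with a 95% counting interval from 29.4 to 6608. Most of these counts came from lymphoid 5, at 3.09 CPM against 0.542 and 0.651 CPM in lymphoid 1 and 6, and the call (edgeR adjusted p = 0.0175) was lost without myeloid 3 or 4. The fitted log2 fold change of 6.93 was 5.82 with limma-voom, 5.70 without lymphoid 5 and 8.84 without myeloid 3. Clec4n, the Dectin-2 gene, stood at 2.14, 4.99 and 0.651 CPM against 0.911, 3.23 and 0.954 CPM with no call (edgeR adjusted p = 0.536). Clec4a4, Clec4b2 and Klrg1 had too few counts to be tested, with 66 against 14, 2 against 11 and 6 against 0 counts in pro-lymphoid and pro-myeloid culture.

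The last 2 genes of the cluster, Clec4d and Clec4e, moved in opposite directions although they lie tail to tail, 6520 bases apart. Clec4e encodes Mincle, an activating receptor for mycobacterial cord factor, and Clec4d encodes MCL, which binds Mincle and the same adaptor. Clec4d stood at 28.9, 28.9 and 21.3 CPM in lymphoid 1, 5 and 6 and at 7.86, 16.1 and 9.19 CPM in myeloid 2, 3 and 4. Clec4e stood at 37.1, 19.8 and 31.6 CPM against 57.5, 67.8 and 47.6 CPM. All pro-lymphoid libraries lay above the pro-myeloid ones for Clec4d and below them for Clec4e. Clec4d rose by 1.26 ± 0.29 (log2, SE; edgeR adjusted p = 0.0132, lost without myeloid 4) and Clec4e fell by 0.97 ± 0.25 (edgeR adjusted p = 0.0190, lost without lymphoid 6 or myeloid 3). Per kb of exon, the ratio of Clec4d to Clec4e was 1.47, 2.75 and 1.27 in lymphoid 1, 5 and 6 and 0.258, 0.448 and 0.364 in myeloid 2, 3 and 4. Clec4d was thus the more abundant of the pair in every pro-lymphoid library and Clec4e in every pro-myeloid one.

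**Figure D2:**
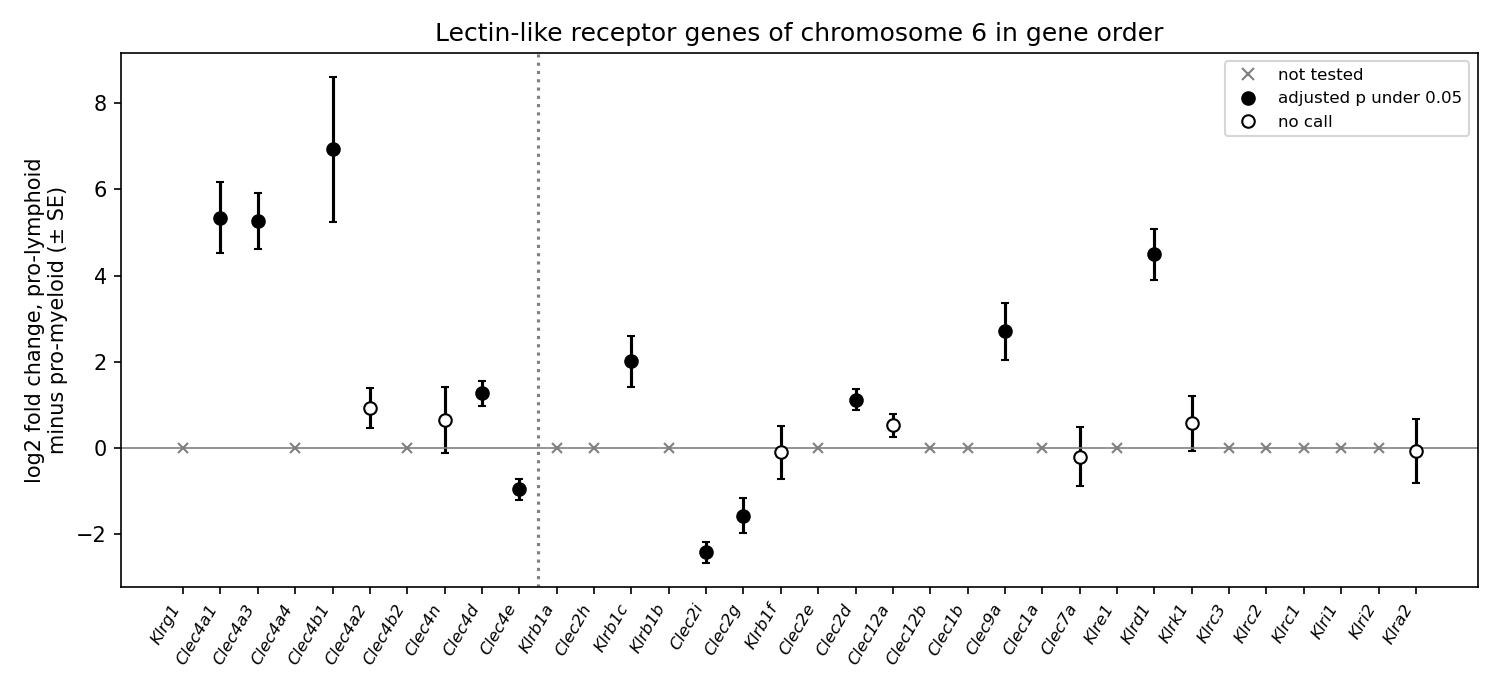
Log2 fold change (y axis, pro-lymphoid minus pro-myeloid, with SE bars) of lectin-like receptor genes of chromosome 6 in gene order (x axis, not to scale), from Klrg1 and the Dectin-2 cluster (left of the dotted line) to the natural killer gene complex (right, without the untested Klra genes). Filled points had an edgeR adjusted p under 0.05, open points had no call, and crosses set at 0 mark untested genes without a value. The neighbours Clec4d and Clec4e lie on opposite sides of 0, as do Clec2i and Clec2d, which have other genes between them.

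The natural killer gene complex, further along chromosome 6, holds 44 of the members, and 33 of them could not be tested. It encodes the NKR-P1 (Klrb1), CD94 and NKG2 (Klrd1, Klrc, Klrk1) and Ly49 (Klra) receptors of natural killer (NK) cells, the Clec2 ligands of NKR-P1 receptors and several myeloid lectins. Of the 11 tested, pro-lymphoid culture had 4 at a higher and 2 at a lower level, beside 17.4% higher and 21.3% lower of all tested genes. Of the 4, Klrb1c, Clec9a and Klrd1 reached the filter level of 0.262 CPM in all libraries of pro-lymphoid culture only, so the count supports nothing by itself.

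The Clec2 genes, whose products are the ligand side of this system, split between the cultures. Clec2i, which encodes Clr-g, a ligand of NKR-P1F, stood at 33.6, 24.4 and 19.2 CPM in lymphoid 1, 5 and 6 and at 169, 134 and 114 CPM in myeloid 2, 3 and 4. Clec2d, which encodes Clr-b, the ligand of the inhibitory NKR-P1B, stood at 17.6, 22.9 and 13.4 CPM against 7.08, 8.58 and 9.25 CPM. The cultures did not overlap for either gene, and the order was reversed between them. The log2 fold changes were -2.43 ± 0.24 for Clec2i and 1.11 ± 0.24 for Clec2d (SE; edgeR adjusted p = 0.000387 and 0.0103), and neither call was lost in any alternative. Clec2g was lower too, at 2.30, 0.863 and 1.05 CPM against 4.89, 4.53 and 3.16 CPM (-1.58 ± 0.40, edgeR adjusted p = 0.0184, lost without lymphoid 5 or 6 or myeloid 3). Clec2h and Clec2e were untested, with 2 against 10 and 1 against 0 counts. The ratio of Clec2d to Clec2i per kb was 0.419, 0.752 and 0.562 in lymphoid 1, 5 and 6 and 0.0337, 0.0515 and 0.0649 in myeloid 2, 3 and 4. Clec2i was the more abundant in all 6 libraries, by far more in pro-myeloid culture.

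Genes of the NKR-P1 receptors showed no common direction. Klrb1f, the NKR-P1F gene, stood at 28.0, 18.6 and 20.8 CPM against 6.56, 49.5 and 17.0 CPM. Its pro-lymphoid values lay within the range of the pro-myeloid ones, with myeloid 2 lowest and myeloid 3 highest of all 6, and there was no call (edgeR adjusted p = 0.905). Klrb1c, the NK1.1 gene, had 45 against 11 counts and a log2 fold change of 2.01 ± 0.59 (edgeR adjusted p = 0.0284), which was lost with DESeq2 and whenever lymphoid 1, lymphoid 5 or any pro-myeloid library was left out. Klrb1b, the gene of the Clr-b receptor, was untested with 21 against 17 counts, and Klrb1a had 0 counts.

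Klrd1, which encodes CD94, the partner chain of NKG2 receptors, stood at 1.82, 5.39 and 3.82 CPM in lymphoid 1, 5 and 6 and at 0.182, 0.178 and 0.130 CPM in myeloid 2, 3 and 4. All pro-lymphoid values were well above the pro-myeloid ones, a log2 difference of 4.49 ± 0.60 (edgeR adjusted p = 0.00123). Its NKG2 partners were all but absent, Klrc1 with 0 against 1 count and Klrc2 and Klrc3 with 0 in all libraries. Klre1, Klri1 and Klri2, other partner chains of the same region, had 3, 2 and 18 counts in pro-lymphoid culture against 0, and none was tested. The pooled counts of Klri2 were at least 6-fold higher there, against a floor of 3 counts over the culture. They were 1, 10 and 7 in lymphoid 1, 5 and 6, and the floor does not cover this spread. Klrk1, the gene of the activating receptor NKG2D, stood at 3.55, 4.03 and 2.75 CPM against 0.286, 4.14 and 2.62 CPM. Myeloid 2 was far below the other 5 libraries, and there was no call (edgeR adjusted p = 0.522).

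Few reads were assigned to Ly49 genes. Of 21 Klra genes 17 had 0 counts in all libraries, and Klra2 alone was tested, at 1.52, 0.706 and 0.0931 CPM against 0.417, 1.12 and 0.845 CPM (no call, edgeR adjusted p = 0.945). Klra1 had 13 against 0 counts and Klra17 0 against 8. In 13 of the members, all untested, at least 50% of the counted exon bases overlapped another gene. Reads there were not assigned, so a count of 0 shows little. Of these 13, 11 had 0 counts, all of them Klra genes, so most of the 17 zeros do not show that a gene was silent.

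Markers of NK cells gave no single direction. Of 15 NK and innate lymphoid markers 4 were tested, Ccl5, Itgae and Cd244 being higher and Nkg7 lower in pro-lymphoid culture, and Ncr1, Gzma, Gzmb and Cd226 had 0 counts in all libraries. Their summed level was 48.3 to 67.5 CPM in pro-lymphoid and 22.7 to 60.9 CPM in pro-myeloid libraries. Of the T cell markers 3 were tested, only Cd5 was called (higher in pro-lymphoid culture), and Cd3e and Themis had 0 counts, with sums of 193 to 249 against 115 to 149 CPM. The call of Cd244 was lost without lymphoid 6. Over all tested genes 17.4% were higher and 21.3% lower.

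The complex also holds 3 myeloid lectin genes that were compared. Clec12a, which encodes the inhibitory receptor MICL, stood at 253, 269 and 310 CPM in lymphoid 1, 5 and 6 and at 114, 234 and 231 CPM in myeloid 2, 3 and 4. The pro-lymphoid libraries were all higher, but the difference did not pass (log2 fold change 0.52 ± 0.27, edgeR adjusted p = 0.161). Clec7a, the gene of the beta-glucan receptor Dectin-1, stood at 12.9, 3.92 and 1.26 CPM against 5.36, 8.05 and 7.39 CPM with no call (edgeR adjusted p = 0.827), as lymphoid 5 and 6 lay below and lymphoid 1 above all pro-myeloid libraries. Clec9a, which encodes DNGR-1, a receptor of cross-presenting dendritic cells for dead cells, had 41 against 6 counts. Its log2 fold change was 2.70 ± 0.66 (edgeR adjusted p = 0.0101) and 3.71 without myeloid 3, and the call was lost with DESeq2 or without myeloid 4.

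Most tested dendritic cell markers moved in the same direction as Clec4a1, Clec4a3 and Clec9a. In pro-lymphoid culture 8 of 11 tested were higher and 1 was lower (median log2 fold change 4.98), and their sum was 1553 to 2573 CPM against 797 to 1319 CPM. Among them Spib, Ccr7, Cd83, Flt3 and Siglech were higher, the call of Siglech being lost with limma-voom. Tcf4 was the lower one (log2 fold change -0.62 ± 0.15, SE; edgeR adjusted p = 0.0154). Xcr1 had no call (edgeR adjusted p = 0.840), and Cd8a was untested. Over all tested genes 17.4% were higher and 21.3% lower. Of 6 tested B cell markers 2 were higher, Cd72 and Blnk, and 2 lower, Vpreb1 and Igll1, the calls of the latter being lost without most single libraries (summed 54.0 to 84.3 against 30.4 to 57.7 CPM). The part of such cells in the change of Clec4a1, Clec4a3, Klrd1 and Clec9a was not tested.

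Of the 8 Cd300 genes, which encode receptors for phospholipids of dying cells and other lipids, 7 lie together on chromosome 11. Cd300c, whose counted position (chr11:114956278-114960417) is that of Cd300c and not of Cd300c2 in RefSeq, was higher in pro-lymphoid culture, at 6.40, 30.3 and 12.2 CPM against 1.09, 4.35 and 3.19 CPM. Its log2 fold change was 2.51 ± 0.67 (edgeR adjusted p = 0.0224). The lowest pro-lymphoid value was close to the highest pro-myeloid one, the fold change was 1.71 without lymphoid 5, and the call was lost without lymphoid 5 or myeloid 4. Cd300ld, an activating gene of the same cluster, was lower, at 12.9, 9.94 and 6.40 CPM against 19.3, 32.2 and 26.4 CPM (-1.41 ± 0.30, edgeR adjusted p = 0.00950), a call that no alternative ended.

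Cd300a, the gene of the main inhibitory member, stood at 94.5, 157 and 111 CPM in lymphoid 1, 5 and 6 and at 86.6, 86.1 and 71.0 CPM in myeloid 2, 3 and 4. The pro-lymphoid libraries were all higher, and the difference lay at the threshold, with no call in edgeR (log2 fold change 0.58 ± 0.20, edgeR adjusted p = 0.0547) and a call with DESeq2, with upper-quartile or no scaling factors, and without lymphoid 1. The ratio of Cd300a to Cd300ld per kb was 3.83, 8.32 and 9.11 in lymphoid 1, 5 and 6 and 2.36, 1.40 and 1.41 in myeloid 2, 3 and 4, so Cd300a exceeded Cd300ld in all 6 libraries and by more in pro-lymphoid culture. This did not hold against Cd300lb, a further activating gene of the cluster, which stood at 29.8 ± 13.8 CPM per kb (SD, n = 3) in pro-myeloid culture against 17.5 ± 1.91 for Cd300a, and at 17.7 ± 2.55 against 26.1 ± 7.03 in pro-lymphoid culture. In CPM, Cd300lb stood at 59.3, 47.1 and 46.2 CPM against 46.9, 126 and 83.9 CPM, and the inhibitory Cd300lf at 5.53, 15.6 and 7.33 CPM against 12, 30.7 and 15.8 CPM. Both overlapped between the cultures without a call (edgeR adjusted p = 0.108 and 0.124), and each was called in 1 leave-out, Cd300lb without myeloid 2 and Cd300lf without lymphoid 5. Cd300lg, the nepmucin gene at another place on chromosome 11, was lower, at 0.732, 1.75 and 0.861 CPM against 6.43, 2.69 and 2.75 CPM (-1.83 ± 0.50, edgeR adjusted p = 0.0249, lost without lymphoid 1 or 6). Cd300lh, with 80 against 8 counts, and Cd300e, with 32 against 19, were untested, and 80.9% of the windows of Cd300lh occur in another gene.

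**Figure D3:**
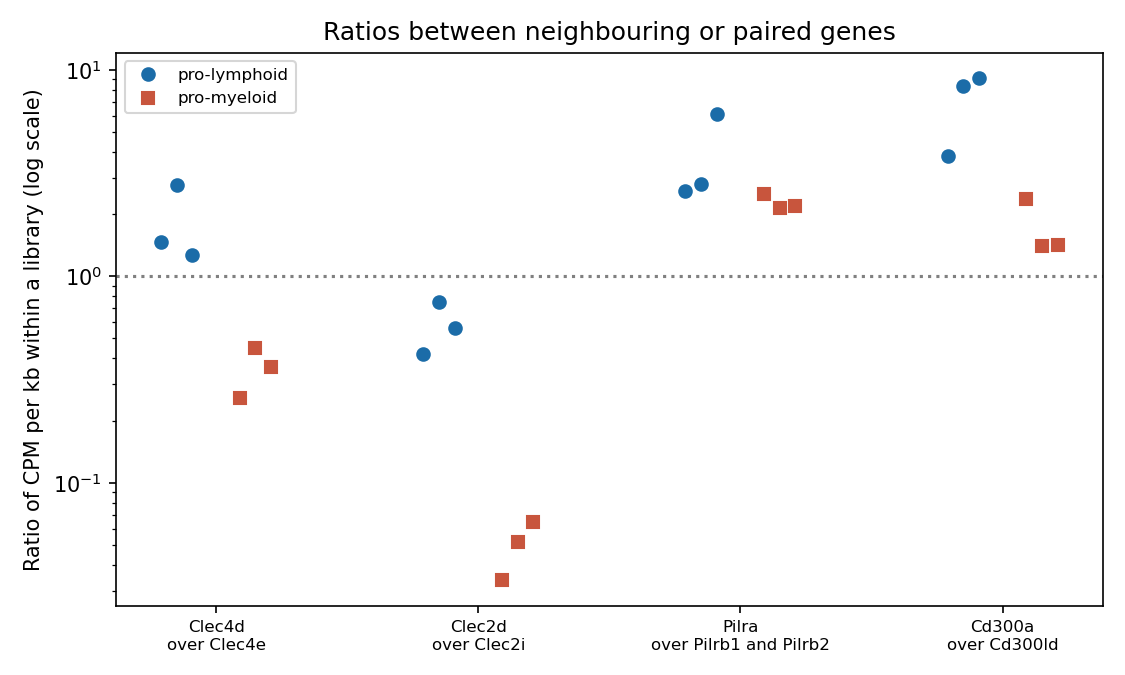
Ratio of CPM per kb of exon between 2 genes of a group within each library (y axis, log scale) for 4 comparisons (x axis), with circles for pro-lymphoid and squares for pro-myeloid libraries and a dotted line at equal levels. Clec4d over Clec4e crosses the line between the cultures, Clec2d over Clec2i stays below it, and the Pilra and Cd300a ratios stay above it in all 6 libraries. The ratios were chosen after the values were seen and were not tested.

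Clec16a, Clec10a and Clec11a completed the tested members. Clec16a, which despite its name encodes an intracellular protein of endosomes and mitophagy, stood at 26.5, 24.0 and 24.2 CPM against 22.3, 26.8 and 24.2 CPM. Clec10a, the gene of the galactose-type macrophage lectin MGL1, stood at 3.42, 14.3 and 5.49 CPM against 9.27, 10.3 and 8.02 CPM. Clec11a, which encodes a secreted growth factor, stood at 2.01 ± 0.525 against 2.08 ± 0.451 CPM (SD, n = 3). All 3 overlapped between the cultures without a call, and Clec10a was called only without lymphoid 5 (edgeR adjusted p = 0.0464).

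Levels of different genes were set beside each other per kb of exon. In pro-lymphoid culture Clec12a was the most abundant member by far, at 125 ± 13.2 CPM per kb (SD, n = 3). Clec2i (26.5 ± 7.52), Cd300a (26.1 ± 7.03), Cd300c (23.6 ± 18.1), Clec4a1 (23.2 ± 13) and Clec4d (19.7 ± 3.28) followed, and these 5 did not differ beyond their spread. In pro-myeloid culture Clec2i led at 143 ± 28.2 CPM per kb, then Clec12a (86.8 ± 30.9), Lilrb3 (50.3 ± 36.2), Clec5a (43.6 ± 8.63), Lilrb4 (36.1 ± 10.9) and Pilra (34.9 ± 28.8), where Clec2i was above Clec12a in every library and the last 4 did not differ beyond their spread. The CPM values of all members summed to 777, 845 and 694 in lymphoid 1, 5 and 6 and to 1124, 1397 and 1037 in myeloid 2, 3 and 4, so the sum was higher in every pro-myeloid library.

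**Figure D4:**
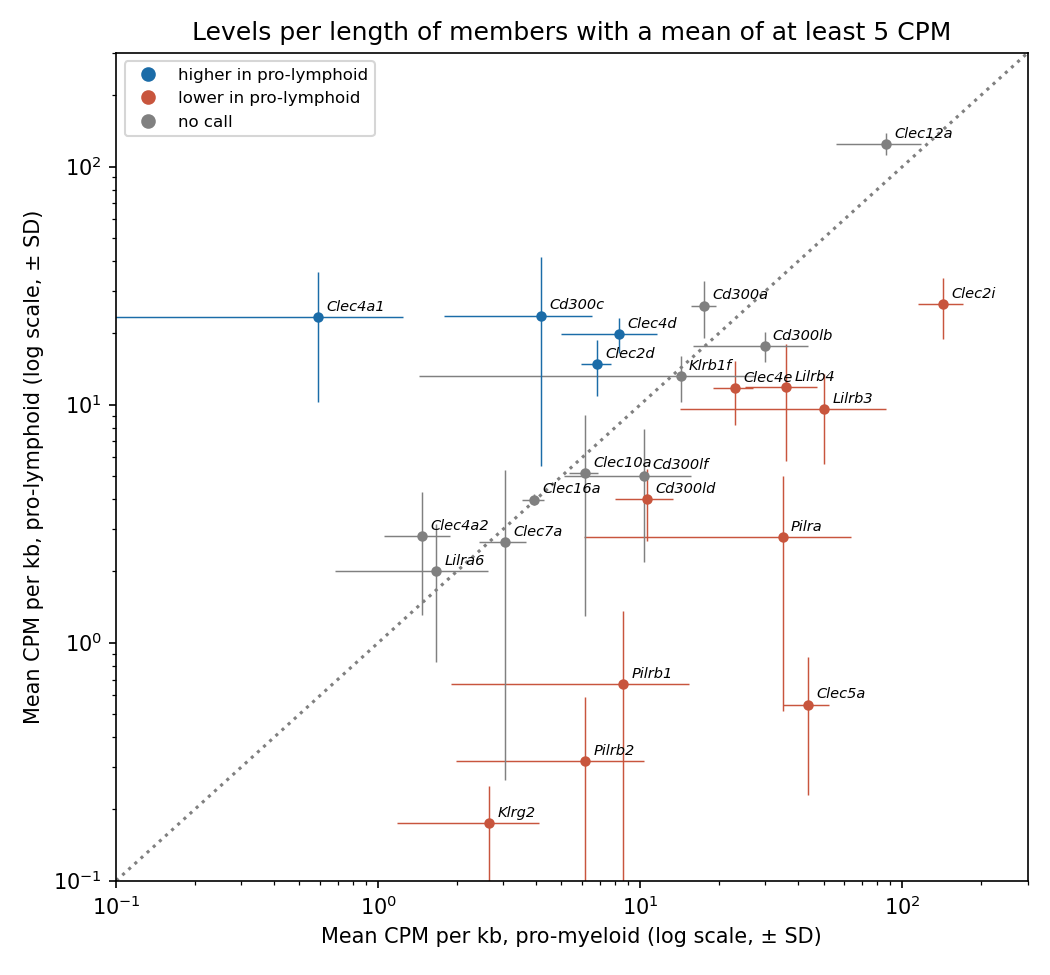
Mean CPM per kb of exon in pro-myeloid (x axis) and pro-lymphoid culture (y axis, both log scales) of the 24 members with a mean of at least 5 CPM in either culture, with bars of 1 SD (n = 3). The lower side of a bar is shortened where the SD is close to or above the mean, and it ends at the axis limit where it reaches below it. Points on the dotted line are equal in both, Clec12a lies at the top right, and Clec5a, the Pilr genes and Klrg2 lie far below the line.

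The 46 untested members comprised 24 with 0 counts in all 6 libraries and 22 with at most 88 counts in total and at most 1.23 CPM in any library. Besides those already given, Clec4g had 8 against 0 counts in pro-lymphoid and pro-myeloid culture, Clec3a 0 against 6, Clec3b 24 against 11, Clec12b 11 against 7 and Clec1b 10 against 5. These counts were too few for a test.

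Of the adaptor genes Tyrobp, Fcer1g and Hcst and the kinase gene Syk, only Hcst was called in edgeR with all libraries, and each of the 4 changed its call in some alternative. Tyrobp, the DAP12 gene on which Clec5a, Pilrb1 and Pilrb2 depend, stood at 253, 320 and 280 CPM in lymphoid 1, 5 and 6 and at 261, 641 and 460 CPM in myeloid 2, 3 and 4 with no call (edgeR adjusted p = 0.113; 0.00568 without myeloid 2). Fcer1g, the adaptor gene of Mincle, stood at 191, 164 and 174 CPM against 216, 353 and 219 CPM (edgeR adjusted p = 0.0597, called lower with DESeq2 or without myeloid 2). Syk stood at 246, 190 and 158 CPM against 242, 272 and 253 CPM (edgeR adjusted p = 0.121, called lower without lymphoid 1). Pro-lymphoid values of Fcer1g lay below all pro-myeloid ones, and those of Tyrobp and Syk overlapped them. Hcst, the DAP10 gene, was lower in pro-lymphoid culture (7.86, 7.30 and 7.19 against 10.4, 23.1 and 17.6 CPM, log2 fold change -1.19 ± 0.30, edgeR adjusted p = 0.0174, lost without lymphoid 5 or 6 or myeloid 4). Card9, which carries the signal of Dectin-1, Dectin-2 and Mincle onward, was lower as well (98.6, 86.7 and 95.1 against 152, 233 and 164 CPM, -0.97 ± 0.17, edgeR adjusted p = 0.00465). Ptpn6 had no call in edgeR with all libraries (0.56 ± 0.19, edgeR adjusted p = 0.0575) and was called higher with DESeq2, limma-voom or upper-quartile scaling and without myeloid 2, and Inpp5d was higher (0.44 ± 0.13, edgeR adjusted p = 0.0336), which did not hold when a lymphoid library or myeloid 4 was left out. Of 24 tested genes of this signalling list 8 were higher and 4 lower (median log2 fold change 0.22), beside 17.4% higher and 21.3% lower of all tested genes. Zap70 (6.35 ± 0.65; 7.31 without myeloid 4), Sh2d1b1 (1.90 ± 0.41) and Prkcd (0.86 ± 0.19) were among the higher ones. Zap70 encodes the Syk-related kinase of T and NK cells.

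Of 19 tested receptors of other paired or adaptor-coupled families, 12 were lower and 2 higher in pro-lymphoid culture (median log2 fold change -1.90). Over all tested genes 21.3% were lower and 17.4% higher. The log2 fold change was -4.08 ± 0.33 for Trem3, -4.99 ± 0.49 for Fcgr3 (-5.63 without lymphoid 1), -3.67 ± 0.33 for Fcgr4, -3.43 ± 0.26 for Cd200r1 and 4.57 ± 0.49 for Siglecg (SE). The edgeR adjusted p-values of these genes ran from 0.000128 (Cd200r1) to 0.000518 (Siglecg).

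Most tested ligand genes of the NKG2D receptor were lower in pro-lymphoid culture, while Klrk1 had no call, and the difference between them was not tested. Raet1a stood at 0.0814, 0.131 and 0 CPM in lymphoid 1, 5 and 6 and at 41.2, 27.9 and 29.3 CPM in myeloid 2, 3 and 4. Raet1e stood at 0.108, 0.131 and 0.0698 CPM against 33.3, 26.8 and 22.4 CPM, and H60b at 0.271, 0.0523 and 0.0233 CPM against 11.5, 6.93 and 7.67 CPM. Each was near the level of a few counts in pro-lymphoid culture and clearly present in every pro-myeloid library. The log2 fold changes were -8.85 ± 0.45 for Raet1a, -8.04 ± 0.33 for Raet1e, -7.57 ± 0.51 for Raet1d, -6.26 ± 0.54 for H60b and -6.09 ± 0.61 for H60c (SE; edgeR adjusted p from 2.85e-06 to 0.000138), and all 5 were called in every alternative. Without lymphoid 1 the values of Raet1d, H60b and H60c were -8.31, -7.76 and -8.10, that of Raet1a was -9.65 without lymphoid 5 and -8.22 without lymphoid 6, and that of H60c was -5.46 without lymphoid 6. Raet1b and Raet1c had 0 counts in all libraries, and H60a was not among the counted genes. Raet1 genes are near copies of each other, and the annotated spans of Raet1a, Raet1b, Raet1c and Raet1d overlap. The counts of single copies, zeros included, are therefore uncertain. Ulbp1, the gene of the NKG2D ligand MULT1, stood at 29.1, 21.3 and 21.7 CPM against 36.5, 18.1 and 32.6 CPM with no call (edgeR adjusted p = 0.457). Of 12 tested genes of the ligand and partner list 0 were higher and 7 lower (median -1.21), beside 17.4% higher and 21.3% lower of all tested genes. The other two lower genes, named after their values were seen, were the classical MHC class I genes H2-K1 (-1.13) and H2-D1 (-1.29), ligands of PIR-B and Ly49 receptors, whose calls were lost without lymphoid 5 or 6 and for H2-D1 also without lymphoid 1 or myeloid 4. H2-T23, which encodes the CD94 and NKG2A ligand Qa-1, stood at 95.6, 134 and 115 CPM against 69.2, 198 and 101 CPM with no call (edgeR adjusted p = 0.855).

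**Figure D5:**
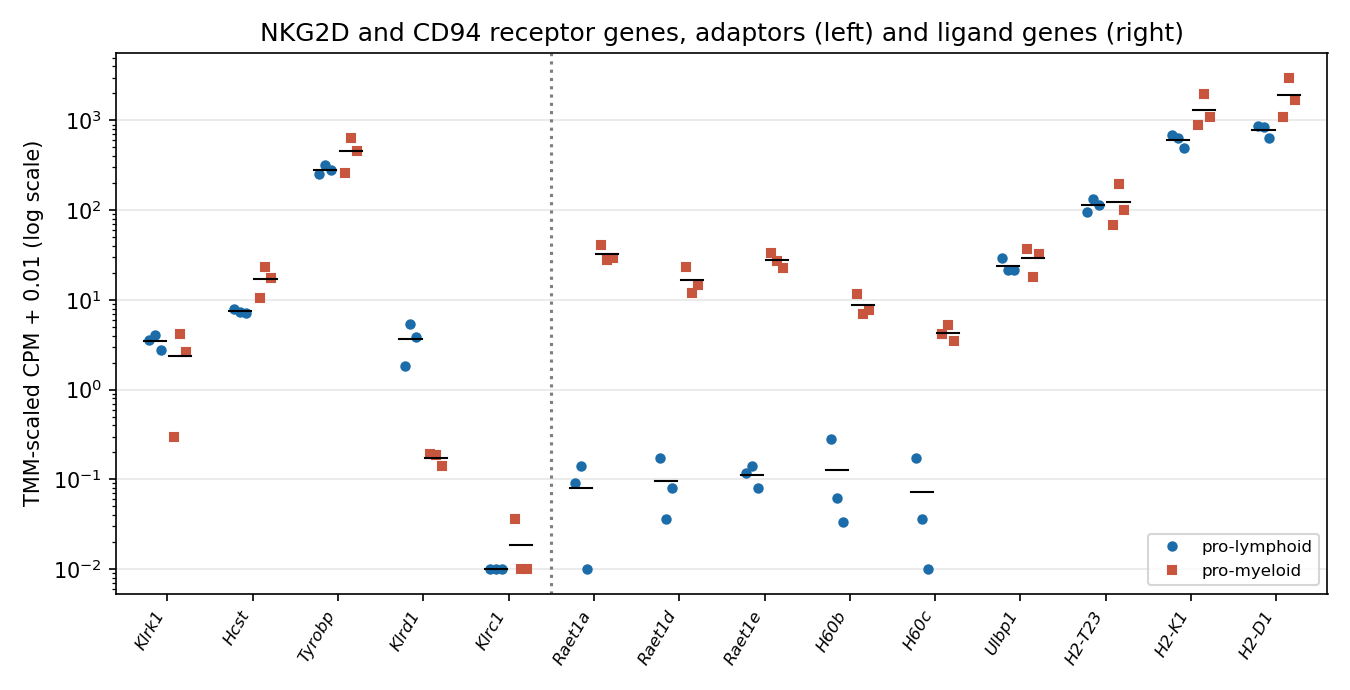
Level of NKG2D and CD94 receptor and adaptor genes (left of the dotted line) and of ligand genes (right) as TMM-scaled CPM plus 0.01 on a log scale (y axis). Circles are the 3 pro-lymphoid libraries, squares the 3 pro-myeloid ones, and bars the mean of a culture. Klrd1 lies higher in pro-lymphoid culture, Klrk1 overlaps apart from myeloid 2, and the Raet1 and H60 genes lie below 0.3 CPM in all pro-lymphoid libraries.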

How the data were processed

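Poly(A) RNA of 6 libraries was sequenced as single reads from a kit that does not mark strand, per the labels' protocols. The authors deposited raw read counts per gene. Per the file headers, these came from featureCounts 1.5.1 over mm10 gene annotation, with primary alignments and without strand, and reads over several genes were not assigned. The submitters' processing notes also name DESeq2, TopHat, Bowtie and Trimmomatic, with settings not given in the sources used here.

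All genes were tested with edgeR 4.0.16 (filterByExpr, TMM scaling, quasi-likelihood F test, two-sided, Benjamini-Hochberg at 0.05 over 12477 genes). Alternatives were other scalings and filters, DESeq2 1.42.0, limma-voom (limma 3.58.1), a minimum log2 fold change of 1 and leaving out each library. The procedure was also run on simulated counts with the same assumed spread for every gene. That setting does not copy the spread between these libraries, so nothing is drawn from it here. SEs come from the F statistic, and counting intervals and floors cover counting error only. Shared sequence was counted as 100-base windows in GENCODE transcripts (72 of 81 members matched). CPM per kb uses the counted exon length.

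The members and gene lists were chosen with earlier results of these data known. Named were called members, uncalled ones with at least 5 CPM or in a family or cluster of a called member, 7 adaptor and phosphatase genes, and up to 5 called genes of each list by adjusted p. The HSPC list was added later.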

Additional observations from a re-analysis of the deposited data

How the results depend on the processing

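Of the 21 called members, 11 kept direction and call in all 14 alternatives, 0 reversed, 10 lost the call when some single library was left out, 2 with DESeq2 (Clec9a and Klrb1c) and 0 with limma-voom. Leaving out 1 library gave 5 (without myeloid 4) to 11 members called higher and 8 to 13 called lower. Over all genes it gave 1298 (without lymphoid 6) to 2478 called higher, with 1394 without myeloid 4, and 1788 to 2907 called lower. With a minimum log2 fold change of 1, 985 genes were higher and 1635 lower. Without the members that share over 10% of their windows, an alternative added after seeing the data, 8 members were higher and 10 lower.

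For 8 of the 14 tested members without a call, and for H2-T23, the direction turned in at least 1 leave-out, and the cause was not tested. Over the 6 leave-outs the log2 fold change ran from -0.26 to 1.45 for Clec4n, from -0.56 to 0.92 for Klrb1f, from -1.44 to 0.28 for Clec7a, from -1.03 to 0.49 for Klra2 and from -0.31 to 0.79 for Lilra6. It ran from -0.27 to 0.093 for Clec11a, from -1.03 to 0.10 for Clec10a, from -0.035 to 0.098 for Clec16a and from -0.38 to 0.43 for H2-T23. With limma-voom it was 0.36 for Klrb1f and 0.033 for H2-T23. Scaling moved the median of all genes by less than 0.05. Clec9a (41 against 6 counts) and Klrb1c (45 against 11) rest on few counts. No paired analysis was possible because no replicate number occurs in both cultures.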
